A study of Mus musculus with 2 samples.

Results

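The 10 genes described here carry iron into cells, out of cells and into storage, or respond to it: Slc40a1, Tfrc, Fth1, Ftl1, Slc11a2, Heph, Hmox1, Ireb2, Gpx4 and Ncoa4. They were taken by symbol from a given gene list, which was chosen with earlier results of these data known. All 10 were found among the 32589 genes of the count files. The counts come from single cells of mouse heart in 2 libraries, 1 from wild-type mice and 1 from p53 knockout mice, both after transverse aortic constriction (TAC), an operation that constricts the aorta and so overloads the left ventricle. Each library mixed the hypertrophied left ventricles of 3 hearts taken 6 weeks after surgery, and neither group included unoperated hearts. The labels name no strain, age or sex, nor the allele or cell type of the p53 deletion. With 1 library per group there was no test between the groups, and every interval below covers counting error only, not differences between animals or library preparations.

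Iron reaches most cells bound to transferrin and enters through the transferrin receptor, after which it is used, stored in the ferritin shell or exported through ferroportin. Iron regulatory proteins bind a hairpin in the messenger RNA, the iron-responsive element, when iron is scarce. Bound near the start of a message it blocks translation, and bound after the coding part of the transferrin receptor message it protects that message from decay. In tissue, macrophages take in iron from aged red cells by breaking down haem and return it to the blood. Cardiomyocytes need iron for their many mitochondria, and iron-driven lipid peroxidation can kill cells by ferroptosis, which Gpx4 opposes.

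The hairpins are shown because the members differ in whether a strict search found one and in where it lies. A search of annotated mouse transcripts (GENCODE vM21, build mm10) looked on the transcribed strand for a C, then 5 bases, then the loop CAGTGN, with the 5 bases paired to the 5 bases after the loop. It found the pattern before the coding part in Fth1, Ftl1 and Slc40a1, and after it in Tfrc, in 4 copies. Of all genes, 31 of 20899 (0.148%) held it before the coding part and 129 of 21022 (0.614%) after it. Each line gives 30 bases, 5′ to 3′, with the loop in capitals.
Fth1: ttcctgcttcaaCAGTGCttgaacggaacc
Ftl1: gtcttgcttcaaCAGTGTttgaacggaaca
Slc40a1: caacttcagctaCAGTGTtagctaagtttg
Tfrc, copy 1: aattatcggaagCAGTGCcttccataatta
Tfrc, copy 2: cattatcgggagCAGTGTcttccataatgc
Tfrc, copy 3: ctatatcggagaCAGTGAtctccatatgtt
Tfrc, copy 4: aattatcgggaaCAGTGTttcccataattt
The Fth1 site lies at chr19:9982732-9982761 on the plus strand, the Ftl1 site at chr7:45459778-45459807 on the minus strand and the Slc40a1 site at chr1:45925464-45925493 on the minus strand, each in exon 1. The Tfrc copies lie in exon 19 on the plus strand, at chr16:32631219-32631248, chr16:32631598-32631627, chr16:32631663-32631692 and chr16:32631710-32631739. A match is a description of the letters and does not show that a protein was bound there. The search required all 5 bases to pair, so hairpins with a mismatch or a bulge there were missed. A member without a match, or with more hairpins than listed, is therefore not excluded from having them.

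The first library, labelled wild-type, held 18897913 unique molecular identifiers (UMIs, each standing for 1 captured RNA molecule) and the second, labelled p53 knockout, held 20918824. After filtering, 14763 and 9298 cells were kept, with medians of 937 and 1567 UMIs per cell. The labels name the cells as cardiomyocytes, whereas cardiomyocyte-like cells were 4844 (32.8%) and 873 (9.39%) of them. In the same order there were 3226 and 2011 fibroblast-like, 2674 and 1929 vascular endothelial-like, 1662 and 1704 endocardial-like, and 975 and 846 macrophage-like cells. Every marker of each of these 5 classes was found in its own class in both libraries. The targeted gene, Trp53, which encodes p53, was at 38.7 and 55.0 CPM (a gene's UMIs relative to all nuclear-encoded UMIs of the same cells, scaled to 1 common total) over all kept cells and 27.0 and 26.9 CPM in cardiomyocyte-like cells, so its level does not tell the libraries apart as labelled. These 3′-type counts do not show whether the message can still make protein. Sex-linked RNA differed as well, with Xist at 2.37 and 929 CPM and 4 Y-linked genes together at 541 and 7.34 CPM. Haemoglobin RNA from 8 genes spanned 426 to 1133 CPM over 10 classes of the first library and 1483 to 3633 CPM over those of the second. Sex and genotype cannot be told apart here. In all, 105 cell barcodes occurred in both libraries, 92 of them among kept cells.

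All levels below are CPM of nuclear-encoded UMIs summed over the cells of a class in 1 library, and rankings are among the 10 classes with at least 50 cells in each library. Ratios are log2 of second over first, after adding 0.5 UMI to either sum, each with an exact 95% interval. A gene was counted as different at 2-fold or more and was measured in a class with at least 20 UMIs over both libraries. The 2 libraries filled 4 of the 5 large classes largely from different clusters: cluster 0 against 3 for fibroblast-like, 1 against 7 for vascular endothelial-like, 4 against 8 for endocardial-like, and 2, 6 and 9 against 9 and 13 for cardiomyocyte-like cells. A value within such a class therefore also compares those clusters.

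In the 5 large classes most of the 10 genes differed less than 2-fold between the libraries, and the exceptions were Hmox1, Slc40a1 and Tfrc. All 10 were measured in each of the 5 large classes. In cardiomyocyte-like cells Hmox1 was higher and Slc40a1 lower, against 4.21% of all genes higher and 15.6% lower. Hmox1 was also past 2-fold higher and Slc40a1 lower in fibroblast-like cells, where the background was 6.47% and 11.4%. Only Hmox1 was past 2-fold among the members in vascular endothelial-like cells (background 6.32% higher, 12.3% lower) and in endocardial-like cells (6.32% and 11.2%). In macrophage-like cells Hmox1 and Slc40a1 were higher and Tfrc lower, with 8.04% and 10.7% of all genes past the same fold. The smaller classes had few members measured. Of 8 in lymphatic endothelial-like cells, Ireb2 was higher and Slc40a1 lower (background 8.71% and 9.24%), and of 7 in pericyte-like cells none was past 2-fold (5.58% and 12.3%). The lymphatic endothelial-like Ireb2 ratio lay at the cut, at log2 1.0005 (0.24 to 1.94, from 15 and 88 UMIs). Scaling by the median of gene ratios, used below, moved every ratio of that class by -0.012, which takes Ireb2 below 2-fold. Of 8 in mesothelial-like cells Fth1 and Slc11a2 were higher and none lower (12.1% and 13.4%). Smooth muscle-like and B-like cells had only 4 measured and are given by their levels.

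The median log2 ratio of the members was 0.11 in cardiomyocyte-like cells against -0.25 for all genes, and 0.25 against -0.04 in macrophage-like cells. Scaling by the median of gene ratios instead of the total raised every ratio by 0.26 in cardiomyocyte-like, 0.11 in fibroblast-like and 0.10 in endocardial-like cells. In cardiomyocyte-like cells it moved the share of higher genes among all past 2-fold from 21.3% to 40.7%. It turned the sign of 8 member ratios, all close to 0: Fth1, Heph and Ncoa4 in fibroblast-like, Ftl1 and Ireb2 in vascular endothelial-like, and Fth1, Slc11a2 and Heph in endocardial-like cells.

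**Figure D1:**
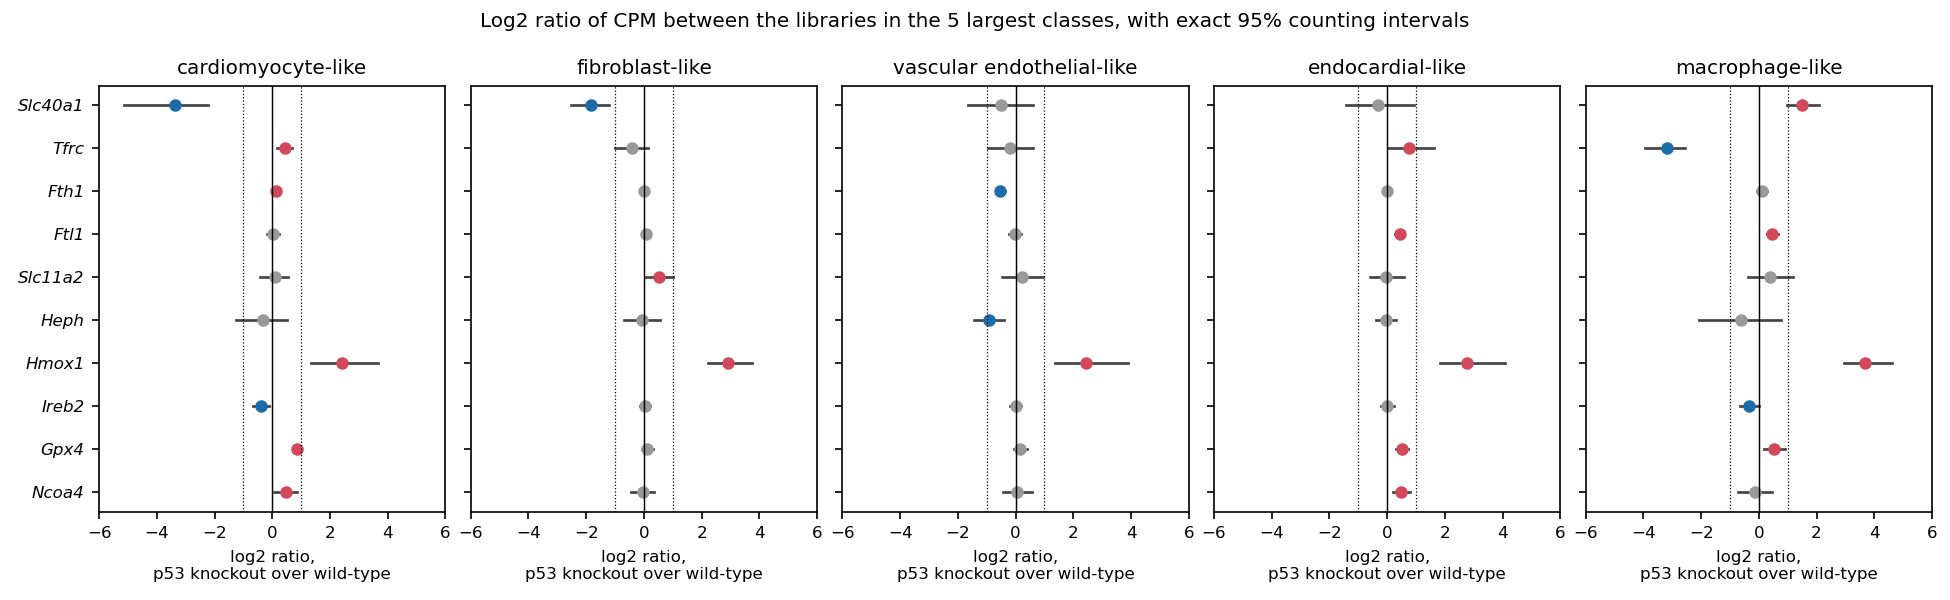
Log2 ratio of CPM, second library (labelled p53 knockout) over first (labelled wild-type) (x axis), for each of the 10 genes (rows) in 5 classes, with exact 95% counting intervals; dotted lines mark 2-fold, red and blue points have intervals wholly above or below 0, and grey points have intervals that hold 0. Hmox1 lies right of the 2-fold line in all 5 classes, Slc40a1 lies left of it in cardiomyocyte-like and fibroblast-like cells, and Tfrc lies left of it in macrophage-like cells.

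Hmox1 (ENSMUSG00000005413, chromosome 8, 75093621 to 75100589, plus strand) encodes haem oxygenase 1, the inducible enzyme that opens haem and frees its iron. Over all kept cells it had 64 UMIs (3.90 CPM) in the first library and 856 (46.2 CPM) in the second, with a log2 ratio of 3.56 (3.20 to 3.96). Here 12.0% of all genes were at least 2-fold higher and 10.9% lower, and Hmox1 was the single member past that fold in either direction. Over the 10 classes alone, with each given the same share in both libraries, its log2 ratio was 2.90. That value also leaves out the neutrophil-like cells, which held 22.9% of its UMIs in the second library.

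In macrophage-like cells Hmox1 stood at 13.3 CPM (7.28 to 22.3; 14 UMIs) and 176 CPM (155 to 200; 235 UMIs), a 12.8-fold difference with a log2 ratio of 3.68 (2.95 to 4.62). The 2 intervals do not overlap. It was also higher in fibroblast-like cells, at 4.87 and 37.3 CPM (log2 2.90), and in endocardial-like cells, at 4.40 and 31.8 CPM (2.77). Levels were low in both libraries in vascular endothelial-like cells, at 2.93 and 16.8 CPM (2.43), and in cardiomyocyte-like cells, at 1.77 and 9.70 CPM (2.42; 11 and 22 UMIs). Only in these 5 of the 10 classes did the interval of the ratio lie above 0. In the other 5 it held 0, and the first library had 2 Hmox1 UMIs or fewer in each of them.

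The share of cells with an Hmox1 UMI sets these levels beside free RNA. In macrophage-like cells it was 1.13% and 10.0%, at medians of 955 and 1261 UMIs per cell, and 0.718% and 4.26% after each cell was thinned to 500 UMIs. In B-like cells, taken as the comparison for free RNA, it was 1.18% (1 of 85 cells) and 2.10% (5 of 238), at medians of 873 and 1110.5 UMIs. The macrophage-like cells of the first library were thus not above that background, nor in the second were cardiomyocyte-like (2.06%) and vascular endothelial-like cells (2.02%). Fibroblast-like and endocardial-like cells of the second library had 4.33% and 4.17%. Thinned, they had 1.49% and 0.998%, against 0.840% in B-like cells. Their thinned intervals, and that of macrophage-like cells, overlapped the B-like one. Unthinned, the macrophage-like interval (8.10% to 12.3%) lay above the B-like one (0.686% to 4.83%). The fibroblast-like and endocardial-like CPM lay within the B-like interval of 5.55 to 39.9 CPM. Cells outside the 10 classes also held the gene: the 265 neutrophil-like cells of the second library, a cluster with monocyte genes such as Chil3 among its leading genes, had 476 CPM (412 to 548) and 22.9% of its Hmox1 UMIs on 2.22% of its RNA. Only 5 such cells came from the other library. Haemoglobin RNA was also higher in the second library, at 508 and 2789 CPM in macrophage-like, 1133 and 1666 in fibroblast-like and 591 and 3633 in cardiomyocyte-like cells. Of the 10 classes of the second library, cardiomyocyte-like cells had the most haemoglobin RNA, and ranked 9 for Hmox1, at 9.70 CPM. A link between haemoglobin RNA and Hmox1 was not tested. Among 6 erythroid markers, 4 and 3 were at 0 in macrophage-like cells and the rest had 4 and 5 UMIs in all. The part of free RNA in the Hmox1 result was not tested.

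**Figure D2:**
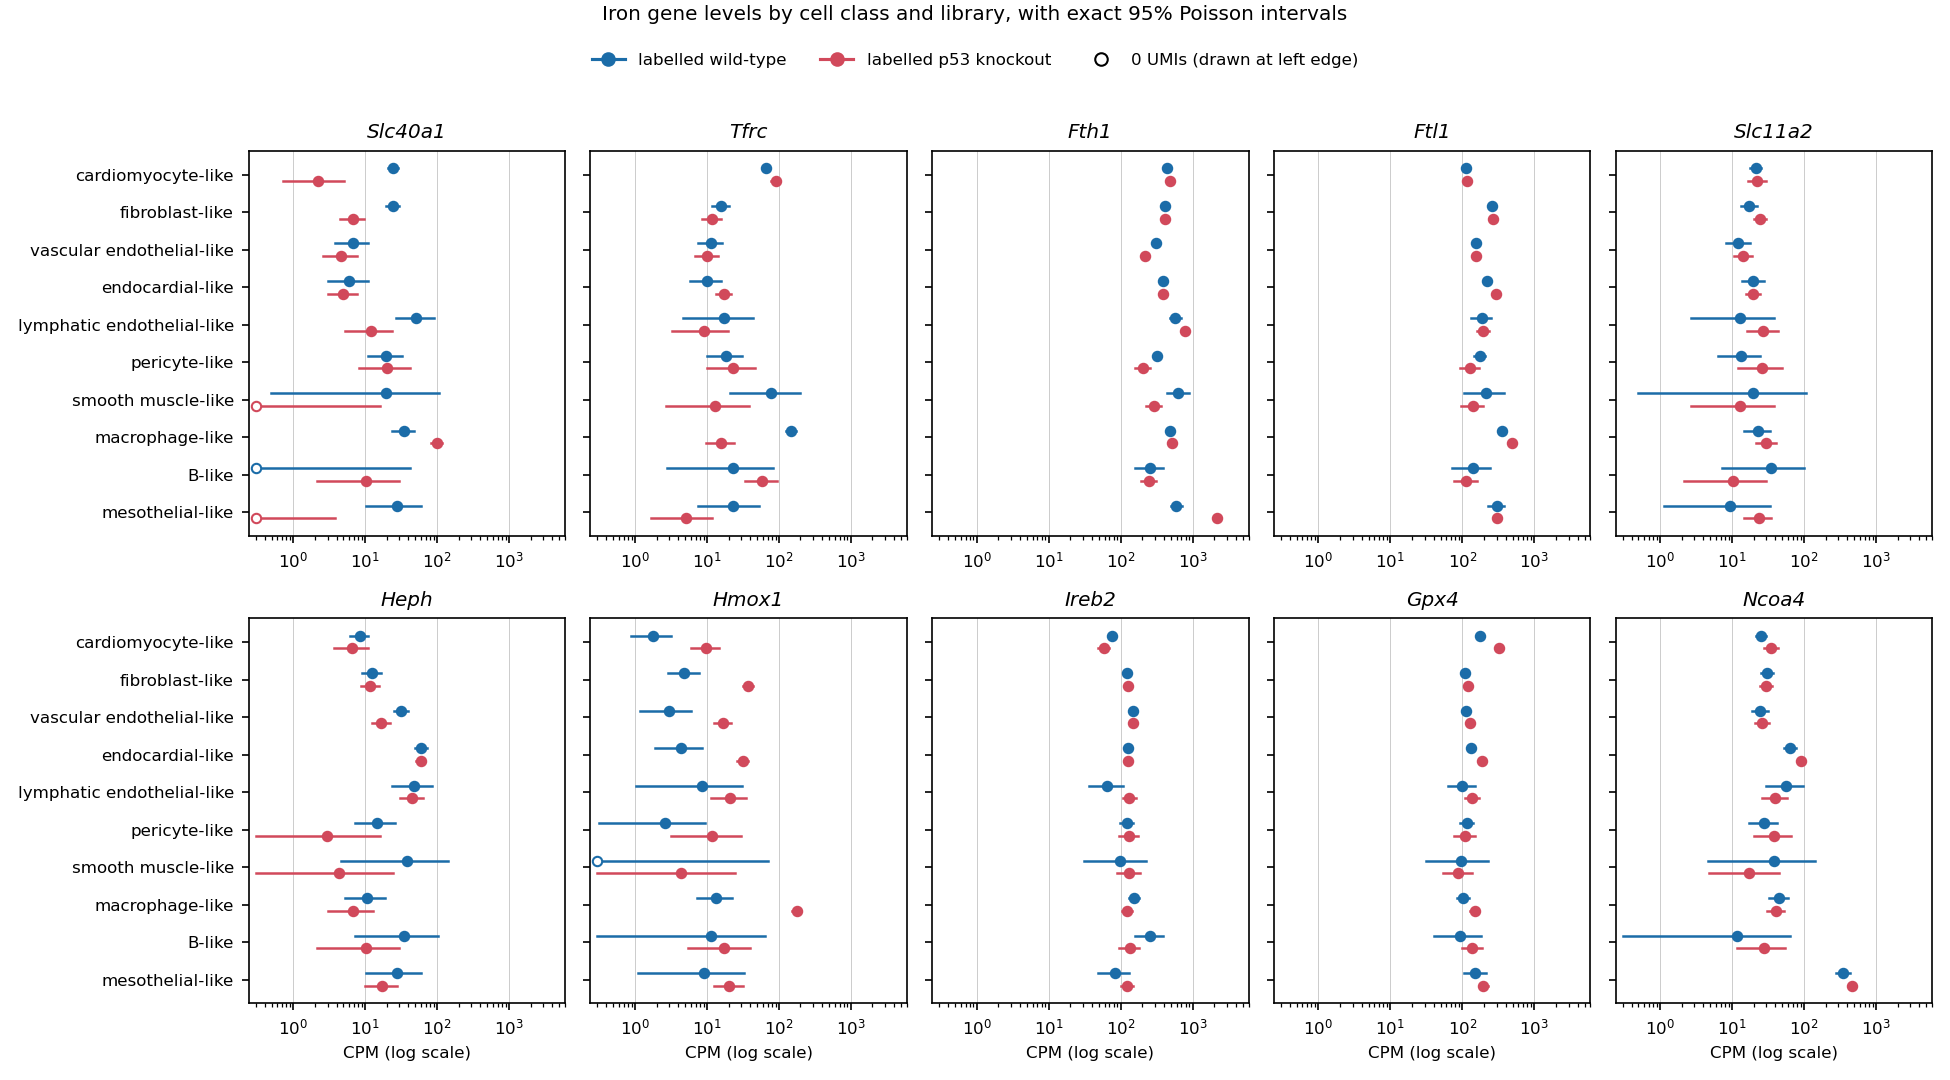
CPM on a log axis (x) for each of the 10 genes (panels) in 10 cell classes (rows), blue for the first library (labelled wild-type) and red for the second (labelled p53 knockout), with exact 95% Poisson intervals and open circles at the left edge for 0 UMIs. The Hmox1 points of the macrophage-like row lie at 13.3 and 176 CPM, the Tfrc points of that row at 147 and 15.8 CPM, and the Fth1 points of the mesothelial-like row at 594 and 2224 CPM.

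Tfrc (ENSMUSG00000022797, chromosome 16, 32608920 to 32632794, plus strand) encodes the transferrin receptor, the main entry for transferrin-bound iron, and its message carries the 4 hairpins printed above. In macrophage-like cells it was at 147 CPM (125 to 173; 155 UMIs) in the first library and 15.8 CPM (9.76 to 24.1; 21 UMIs) in the second. This was a 9.17-fold lower level, with a log2 ratio of -3.20 (-3.96 to -2.56). Among the 10 classes of the first library macrophage-like cells had the highest Tfrc level, with an interval that overlapped that of smooth muscle-like cells (77.4 CPM from 4 UMIs). Among those of the second library they ranked 5 of 10, and cardiomyocyte-like cells came first.

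The macrophage-like difference was present within finer clusters. At Leiden resolution 2 the class divided into 3 main groups. In the group led by F13a1, Mrc1 and Aoah, Tfrc was at 161 and 17.1 CPM (log2 -3.07; 823 and 241 cells). In the group led by the antigen presentation genes H2-Eb1, H2-Ab1 and H2-Aa it was at 103 and 16.8 CPM (-2.60; 144 and 399 cells). The remaining group, led by Adam8 and Cd300lf, held 3 and 203 cells, so the first library gives no usable level there.

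**Figure D3:**
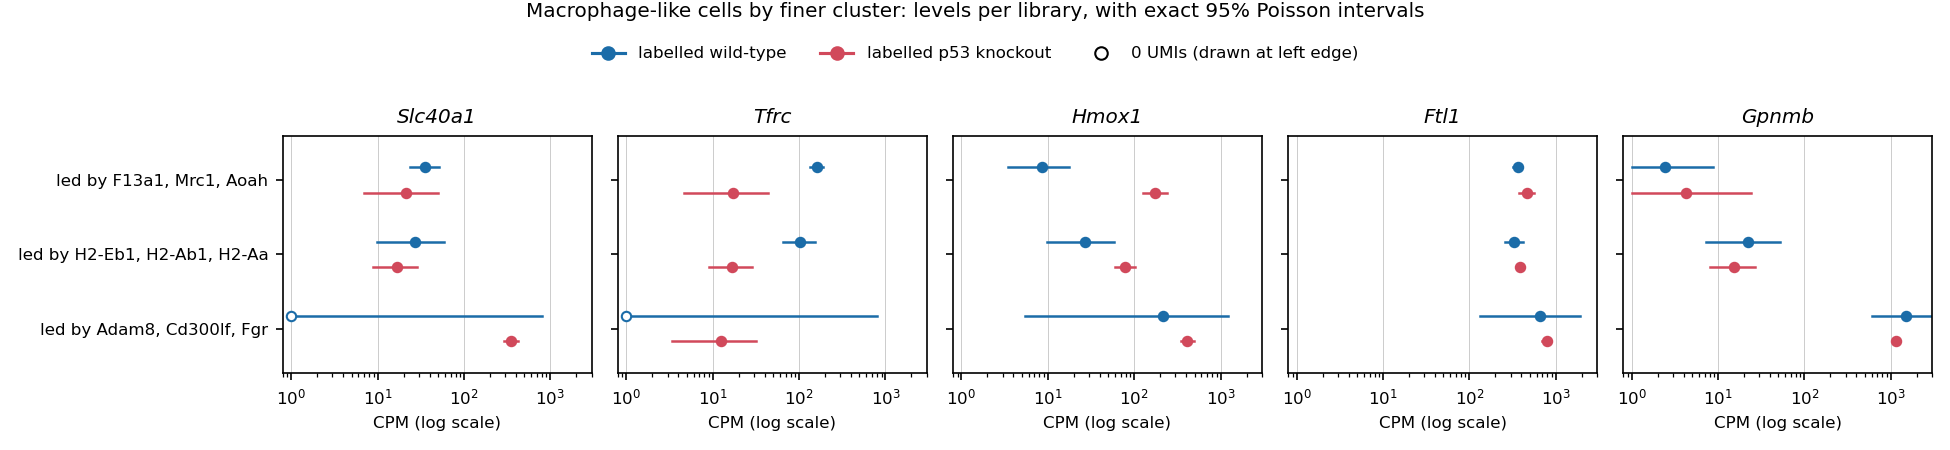
CPM on a log axis (x) of Slc40a1, Tfrc, Hmox1, Ftl1 and Gpnmb (panels) in macrophage-like cells divided at the finer clustering (rows, named by 3 leading genes), blue for the first library (labelled wild-type) and red for the second (labelled p53 knockout), with exact 95% Poisson intervals and open circles for 0 UMIs. Tfrc lies lower in red in the upper 2 rows, at 17.1 and 16.8 CPM, and the high Slc40a1 level of 350 CPM is in the row led by Adam8, which held 3 cells of the first library.

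In cardiomyocyte-like cells Tfrc was at 67.2 CPM (60.9 to 74.0) and 90.4 CPM (78.4 to 104), a log2 ratio of 0.43 (0.18 to 0.67). This difference lay in cluster 9, whose cells had a median of 20.1% mitochondrial UMIs: Tfrc was at 38.5 and 130 CPM there (log2 1.75; 1.15 to 2.40). Without cluster 9 the levels were 71.7 and 76.5 CPM (0.10; -0.20 to 0.39). In endocardial-like cells it was at 9.90 and 17.1 CPM (0.76; 0.03 to 1.63), but at 10.02 and 3.51 CPM (18 and 2 UMIs; -1.23, -4.67 to 0.55) in cluster 4, the only endocardial-like cluster with at least 50 cells from each library. In fibroblast-like and vascular endothelial-like cells the intervals of the ratio held 0. Over all kept cells Tfrc was at 42.9 and 24.1 CPM (-0.83, interval -1.01 to -0.66), and -0.16 remained over the 10 classes when these had equal shares. The lower level over all cells went with fewer cardiomyocyte-like cells, which held 59.3% of the Tfrc UMIs in the first library and 45.9% in the second. It also went with the lower level within macrophage-like cells. These held 22.0% and 4.70% of the Tfrc UMIs, on 6.40% and 7.19% of the RNA.

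Slc11a2 (ENSMUSG00000023030, chromosome 15, 100387898 to 100425072, minus strand) encodes a divalent metal transporter that moves iron out of endosomes into the cytosol. It was low everywhere, from 9.21 to 34.7 CPM over the 10 classes of the first library and from 10.3 to 30.02 CPM in the second, and neighbours in this order had overlapping intervals throughout. In fibroblast-like cells it was at 17.2 and 24.6 CPM (log2 0.51; 0.04 to 1.002), and in the other 4 large classes the intervals of the ratio held 0. In cardiomyocyte-like cells the levels were 21.4 and 22.5 CPM.

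Slc40a1 (ENSMUSG00000025993, chromosome 1, 45908068 to 45926523, minus strand) encodes ferroportin, the iron exporter of animal cells, and has a hairpin before its coding part. In cardiomyocyte-like cells it had 154 UMIs (24.8 CPM, 21.0 to 29.0) in the first library and 5 UMIs (2.20 CPM, 0.716 to 5.14) in the second, a 10.2-fold lower level with a log2 ratio of -3.36 (-5.13 to -2.24). The levels of the first library differed between its classes beyond counting error, since vascular endothelial-like cells were at 6.71 CPM (3.83 to 10.9). In the second library cardiomyocyte-like cells were not above vascular endothelial-like cells, at 4.68 CPM (2.62 to 7.72). The share of cardiomyocyte-like cells with a UMI was 2.52% and 0.573%, and 0.950% and 0.229% at 500 UMIs per cell.

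The lower Slc40a1 level was also seen in fibroblast-like cells, at 24.1 and 6.70 CPM (84 and 28 UMIs; log2 -1.83, -2.52 to -1.21), and in lymphatic endothelial-like cells, at 51.7 and 12.1 CPM (12 and 8 UMIs; -2.07, -3.59 to -0.69). Fibroblast-like cluster 0 had 80 and 0 UMIs from 3085 and 154 cells. Fibroblast-like cluster 3 had 4 and 28 UMIs from 141 and 1857 cells. Each of these clusters held few cells of 1 library, so the UMI pairs are not to be read as levels. Mesothelial-like cells had 6 UMIs in the first library and 0 in the second, where a floor of 3 UMIs would be 3.06 CPM. In cardiomyocyte-like cluster 9, which held 847 and 323 cells, the levels were 14.4 and 1.72 CPM (12 UMIs and 1 UMI; log2 -2.55, -8.49 to -0.32). In cluster 2 they were 30 and 0 UMIs, but the 104 cells of the second library were too few for a difference to be detectable, with an interval up to 51.9 CPM. The other cardiomyocyte-like clusters came almost wholly from 1 library each, cluster 6 with 1720 and 38 cells and cluster 13 with 23 and 408. The class ratio of Slc40a1 therefore also compares these clusters. Pericyte-like cells had 19.8 and 20.4 CPM (15 and 7 UMIs), with no difference beyond counting error. In the second library only 3 of 219 pericyte-like cells had a UMI, and a single cell held 5 of the 7. That level therefore rests largely on 1 cell.

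Macrophage-like cells went the other way, with Slc40a1 at 34.3 CPM (23.99 to 47.4; 36 UMIs) and 98.3 CPM (82.2 to 117; 131 UMIs), a log2 ratio of 1.51 (0.98 to 2.10). This higher level lay in 1 group of cells: 113 of the 131 UMIs were in the 203 macrophage-like cells of the group led by Adam8, at 350 CPM (288 to 420). The whole finer cluster behind that group, 8 and 468 cells, was called neutrophil-like by its markers. Its leading genes include Csf3r and Il1b, genes of neutrophils and inflammatory myeloid cells, beside Gpnmb, a gene of lipid-laden and phagocytic macrophages, and Arg1. Outside it, Slc40a1 was at 34.4 and 17.8 CPM, a log2 ratio of -0.93 (-1.85 to -0.09), so the direction in the class turned with that group. A single cell held 24 of the 131 UMIs. The same 203 cells had Hmox1 at 411 CPM (344 to 488). Outside them Hmox1 was still higher, at 12.4 and 101 CPM (2.98; 2.19 to 3.98), and Tfrc still lower, at 148 and 16.8 CPM (-3.10; -3.95 to -2.41).

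Heph (ENSMUSG00000031209, chromosome X, 96455359 to 96574485, plus strand) encodes hephaestin, a copper oxidase that works beside ferroportin. Among the 10 classes its highest level was in endocardial-like cells in both libraries, at 60.5 CPM (49.7 to 72.9) and 58.8 CPM (51.6 to 66.8), followed by lymphatic endothelial-like cells at 47.4 and 45.3 CPM, whose intervals overlapped those above them. Outside those classes the few adipocyte-like cells had 3 and 12 UMIs (66.9 and 96.4 CPM). In vascular endothelial-like cells it was at 31.9 CPM (25.1 to 39.9) and 16.8 CPM (12.7 to 22.0), a log2 ratio of -0.92 (-1.45 to -0.40), and it was lower in both clusters of that class, at -0.88 and -0.81. In the other 4 large classes the interval of the ratio held 0. Heph is X-linked, and the part of the sex-linked difference between the libraries was not tested.

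Fth1 (ENSMUSG00000024661, chromosome 19, 9980598 to 9985098, plus strand) and Ftl1 (ENSMUSG00000050708, chromosome 7, 45457944 to 45459884, minus strand) encode the ferritin heavy chain, which oxidises iron as it enters the shell, and the light chain, which helps to lay down the mineral core. Fth1 was at 416 and 412 CPM in fibroblast-like cells, 391 and 391 in endocardial-like cells, and 486 and 526 in macrophage-like cells, with intervals of the ratio that held 0. It was lower in vascular endothelial-like cells, at 313 CPM (291 to 336) and 217 CPM (201 to 234), a log2 ratio of -0.53 (-0.68 to -0.38). Over all kept cells it was at 410 and 498 CPM (0.28; 0.24 to 0.33).

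In cardiomyocyte-like cells Fth1 was at 438 and 479 CPM (log2 0.13; 0.03 to 0.23). That near-equality hid 2 kinds of clusters. In the mitochondria-rich cluster 9, Fth1 was at 1803 and 1533 CPM, and without it the class had 227 CPM (215 to 240) and 114 CPM (98.9 to 132), a ratio of -0.98 (-1.21 to -0.77). Both parts of the class were thus lower in the second library. The positive class ratio went with the share of cluster 9, which held 847 of 4844 and 323 of 873 cells. The leading genes of cluster 9 included Nppa and Nppb, natriuretic peptides of the loaded heart, and Mb, the oxygen carrier of muscle. The lower ratio without it sets clusters 2 and 6 of the first library against cluster 13 of the second.

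**Figure D4:**
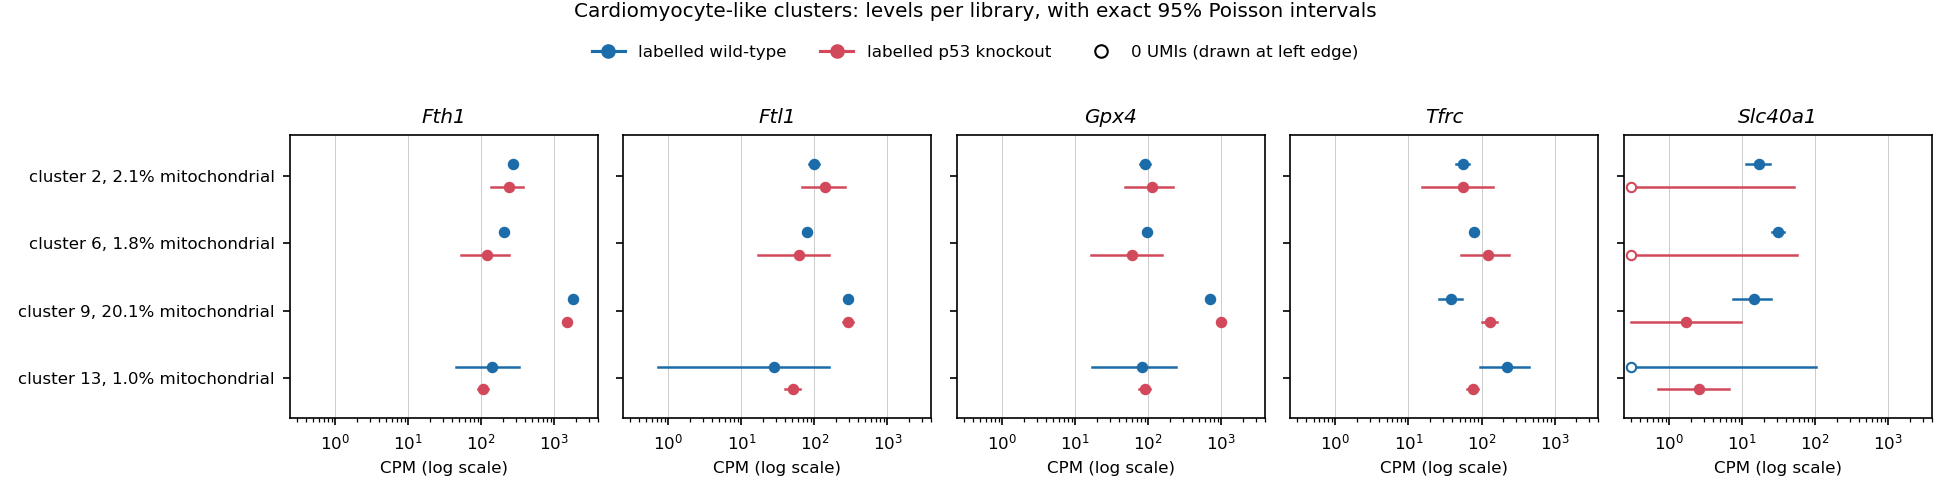
CPM on a log axis (x) of Fth1, Ftl1, Gpx4, Tfrc and Slc40a1 (panels) in the 4 cardiomyocyte-like clusters (rows, with the median mitochondrial share of their cells), blue for the first library (labelled wild-type) and red for the second (labelled p53 knockout), with exact 95% Poisson intervals and open circles for 0 UMIs. Fth1, Ftl1 and Gpx4 lie farthest right in cluster 9 in both libraries, with Fth1 at 1803 and 1533 CPM.

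Mesothelial-like cells, which line the outside of the heart, had the widest Fth1 difference among the 10 classes: 594 CPM (496 to 706; 129 UMIs) and 2224 CPM (2131 to 2319; 2182 UMIs), a log2 ratio of 1.90 (1.65 to 2.17). Slc11a2, the other member past 2-fold in this class, had 2 and 23 UMIs (1.06, -0.67 to 4.48). An Fth1 UMI was found in 53 of 178 and 201 of 280 cells, or 16.3% and 46.8% at 500 UMIs per cell, and the highest cell held 165 of the 2182 UMIs. In B-like cells the thinned shares were 11.8% and 12.6%. Ftl1 did not share this difference, at 299 and 308 CPM (0.03; -0.35 to 0.45). In smooth muscle-like cells Fth1 was lower, at 638 and 287 CPM (33 and 66 UMIs; -1.16, -1.77 to -0.50). Lymphatic endothelial-like cells were next among the 10 classes of the second library, at 577 and 782 CPM (0.43; 0.16 to 0.72).

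Among the 10 classes Ftl1 was highest in macrophage-like cells in both libraries, at 359 CPM (323 to 397) and 497 CPM (460 to 536), a log2 ratio of 0.47 (0.29 to 0.66). The neutrophil-like cells of the second library, outside those classes, were higher, with Ftl1 at 770 CPM (688 to 860) and Fth1 at 1028 CPM (932 to 1131). In macrophage-like cells outside the group led by Adam8 the Ftl1 levels were 357 and 404 CPM (0.18; -0.03 to 0.38). Endocardial-like cells had 221 and 297 CPM (0.43; 0.27 to 0.60), but 221 and 235 CPM within cluster 4 (0.09; -0.20 to 0.37). In fibroblast-like, vascular endothelial-like and cardiomyocyte-like cells the intervals held 0. Without cluster 9 the cardiomyocyte-like levels were 86.0 and 54.6 CPM (-0.65; -0.99 to -0.33). Ferritin genes have near-identical copies in the genome, and reads shared with them could be split: the copy Ftl1-ps1 had 54 and 61 UMIs, against 3039 and 4685 for Ftl1.

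Ncoa4 (ENSMUSG00000056234, chromosome 14, 32159865 to 32179855, plus strand) encodes the receptor that delivers ferritin to lysosomes, where its iron is released. Among the 10 classes mesothelial-like cells were far above every other, at 350 CPM (276 to 438) and 463 CPM (421 to 507). Endocardial-like cells came next, at 63.8 CPM (52.7 to 76.6) and 89.6 CPM (80.6 to 99.4), with intervals that did not overlap those above. Adipocyte-like cells, outside the 10 classes, had 112 and 161 CPM from 5 and 20 UMIs. The endocardial-like log2 ratio was 0.49 (0.18 to 0.80), and -0.31 (-0.97 to 0.27) within cluster 4. Over all kept cells Ncoa4 was at 37.0 and 67.9 CPM (0.87), but the ratio was 0.29 over the 10 classes with equal shares. Mesothelial-like cells supplied 12.5% of its UMIs in the first library and 36.1% in the second.

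Ireb2 (ENSMUSG00000032293, chromosome 9, 54863789 to 54912530, plus strand) encodes iron regulatory protein 2, which binds the hairpins printed above. It was at 147 and 147 CPM in vascular endothelial-like, 126 and 126 in endocardial-like and 125 and 128 in fibroblast-like cells. Ireb2 was lower in cardiomyocyte-like cells, at 76.4 CPM (69.7 to 83.6) and 58.6 CPM (49.1 to 69.5), a log2 ratio of -0.38 (-0.67 to -0.10). The median of all genes in this class was -0.25, and scaling by the median of ratios raised every ratio there by 0.26. In the second library cardiomyocyte-like cells had the lowest level of the 10 classes, with an interval below that of the next class. Macrophage-like cells were at 154 and 123 CPM (-0.32; -0.65 to -0.00).

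Gpx4 (ENSMUSG00000075706, chromosome 10, 80047166 to 80056439, plus strand) encodes glutathione peroxidase 4, which reduces lipid peroxides in membranes. Cardiomyocyte-like cells had its highest level among the 10 classes in both libraries, at 178 CPM (167 to 189) and 325 CPM (302 to 349), a log2 ratio of 0.87 (0.73 to 1.01), or 1.13 with scaling by the median of ratios. In cluster 9 it was at 708 and 1006 CPM (0.51; 0.34 to 0.67), and without that cluster the levels were 96.0 and 89.6 CPM (-0.10; -0.37 to 0.16). The first rank of the class thus rested on cluster 9, which held 847 of its 4844 and 323 of its 873 cells. Endocardial-like cells were at 133 and 189 CPM (0.51; 0.30 to 0.72), or 134 and 139 CPM in cluster 4 (0.05; -0.34 to 0.42). Macrophage-like cells were at 102 and 148 CPM (0.54; 0.19 to 0.89).

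A list of 92 other genes of iron, haem and lipid peroxide biology gives the surroundings of the members. In cardiomyocyte-like cells 78 were measured, 7 at least 2-fold higher and 6 lower, beside 4.21% and 15.6% of all genes. The median log2 ratio was -0.21 against -0.25 for all genes. The counts were 9 higher and 4 lower of 81 in fibroblast-like cells (6.47% and 11.4% of all genes). In vascular endothelial-like cells they were 6 and 11 of 77 (6.32% and 12.3%). Endocardial-like cells had 9 and 8 of 79 (6.32% and 11.2%), and macrophage-like cells 9 and 8 of 71 (8.04% and 10.7%). For each role and class the genes named below had the highest or lowest ratio among those with at least 100 UMIs. They were chosen for that, and their ratios are a description.

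Among uptake and export partners, Slc39a14, a zinc transporter that also takes up iron not bound to transferrin, had the highest ratio in 3 of the classes. It was at 83.5 and 182 CPM in cardiomyocyte-like cells (log2 1.13), 50.7 and 139 in vascular endothelial-like cells (1.45), and 20.9 and 79.6 in macrophage-like cells (1.90). Cp, the oxidase ceruloplasmin, had the lowest ratio in cardiomyocyte-like cells, at 585 and 401 CPM (-0.55), and in macrophage-like cells, at 434 and 157 CPM (-1.47). In fibroblast-like cells Hephl1, a relative of hephaestin, had 3 and 115 UMIs (0.860 and 27.5 CPM). In endocardial-like cells Lcn2, which binds iron-carrying siderophores, was at 2.75 and 54.6 CPM (4.18). Steap4 in fibroblast-like cells was at 31.5 and 18.4 CPM, Lrp1 in vascular endothelial-like cells at 124 and 70.8 CPM, and Slc22a17 in endocardial-like cells at 26.4 and 16.6 CPM.

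In the hepcidin axis, which sets the systemic control of ferroportin, Hamp, the gene of hepcidin itself, had 4 UMIs (2.20 CPM) and 107 UMIs (26.6 CPM) in endocardial-like cells (log2 3.43). Bmp6, a signal that raises hepcidin, was at 479 and 280 CPM in vascular endothelial-like cells (-0.77) and 116 and 73.5 CPM in macrophage-like cells (-0.66). Bmp2 was at 25.2 and 12.7 CPM and Neo1 at 83.4 and 140 CPM in fibroblast-like cells. Hjv was at 111 and 86.4 CPM in cardiomyocyte-like cells. Hfe had the highest ratio in cardiomyocyte-like (0.57), vascular endothelial-like (-0.31) and macrophage-like cells (0.11) and the lowest in endocardial-like cells (-0.55).

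Among haem genes the ratios were mostly small. Cd163, the scavenger receptor for haemoglobin bound to haptoglobin, had the lowest in cardiomyocyte-like cells, at 16.9 and 6.61 CPM (log2 -1.31). It also had the lowest in fibroblast-like cells, at 22.4 and 8.13 CPM (-1.45). The part of free RNA from other classes in these Cd163 levels was not tested. Slc48a1, a haem transporter of the lysosome, was at 37.3 and 17.2 CPM in vascular endothelial-like cells (-1.12). Ppox, an enzyme of haem synthesis, had the highest ratio in fibroblast-like (0.27), vascular endothelial-like (0.34) and macrophage-like cells (0.67). Cpox in cardiomyocyte-like cells (0.19) had the highest ratio there, and Blvra in endocardial-like cells (-0.20) and Abcg2 in macrophage-like cells (-0.50) the lowest.

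Of 16 genes of mitochondrial iron and iron-sulphur clusters, 15 were measured in each large class, and the number with a lower level was 9 in macrophage-like, 12 in endocardial-like and 13 in fibroblast-like cells, and 11 in both other classes. Of all genes measured, the share with a higher level ran from 33.6% in cardiomyocyte-like to 47.7% in macrophage-like cells, so lower levels were also the more frequent among all genes. At 2-fold, none of the 15 genes was higher in these 5 classes. Lower were 1 in endocardial-like, 1 in vascular endothelial-like and 2 in macrophage-like cells. Of all genes, 4.21% to 8.04% were past 2-fold higher in these classes and 10.7% to 15.6% lower. Isca2, an assembly factor, had the lowest ratio in cardiomyocyte-like cells, at 65.6 and 39.7 CPM (log2 -0.72), and in fibroblast-like cells, at 39.0 and 21.0 CPM (-0.89). Slc25a37, the mitochondrial iron importer, had the highest in fibroblast-like cells, at 57.1 and 104 CPM (0.86), in vascular endothelial-like cells (0.46) and in macrophage-like cells (0.19). Cisd1 (0.31 in cardiomyocyte-like, -0.97 in vascular endothelial-like cells), Fdx1 (0.44) and Nfs1 (-0.85) in endocardial-like cells, and Cisd2 (-0.62) in macrophage-like cells completed this role.

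Among cytosolic sensors and chaperones Mt2, a metal-binding metallothionein, had the highest ratio in 4 classes, at 19.6 and 76.7 CPM in cardiomyocyte-like (log2 1.97), 21.5 and 245 in fibroblast-like (3.50), 7.13 and 29.3 in vascular endothelial-like (2.01) and 4.95 and 43.9 in endocardial-like cells (3.08). Bach1, a haem-sensing repressor of Hmox1, was at 78.7 and 43.2 CPM in cardiomyocyte-like cells (-0.86). Nfe2l2, an activator of Hmox1, had the lowest ratio in fibroblast-like (-0.54), endocardial-like (-0.27) and macrophage-like cells (-0.39). Fbxl5, which marks iron regulatory protein 2 for destruction, had the lowest in vascular endothelial-like (-0.33) and the highest in macrophage-like cells (0.42).

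Among ferroptosis genes Nox4, an oxidase that makes hydrogen peroxide, was at 110 and 1018 CPM in fibroblast-like cells (log2 3.21; 3.06 to 3.36) and also had the highest ratio in cardiomyocyte-like (1.33), vascular endothelial-like (1.12) and endocardial-like cells (1.89). Slc7a11, the cystine importer that feeds glutathione synthesis, was at 84.6 and 23.2 CPM in fibroblast-like cells (-1.86) and 15.1 and 4.41 CPM in cardiomyocyte-like cells (-1.72). Gsr, which regenerates glutathione, was at 18.1 and 87.8 CPM in macrophage-like cells (2.25). Ptgs2 in endocardial-like cells was at 165 and 67.3 CPM (-1.29), and Vdac3 in vascular endothelial-like (-0.73) and Gch1 in macrophage-like cells (-0.77) had the lowest ratios there.

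Genes with a pattern like that of 5 members were sought by the correlation of log2(CPM + 20) over 20 points, 10 classes in each library, among 9864 genes. The points share libraries, depth and the cells of a class, so the values describe likeness only. For Hmox1 the 3 most alike were Gpnmb (Pearson r = 0.89), Adam8 (0.85) and Cd300lf (0.83), the genes that lead the macrophage-like group described above. For Heph they were Unc13b (0.88), Bmx (0.85) and Sptan1 (0.84), and for Fth1 Ufm1 (0.81), Prdx5 (0.80) and Shb (0.78). Tfrc was most alike Phtf2 (0.78), Mtr (0.77) and Slc25a26 (0.75), and Slc40a1 Washc2 (0.77), Gpt2 (0.76) and Dcakd (0.75). Among the members themselves, Fth1 and Ncoa4 had r = 0.72 and Tfrc and Slc40a1 0.20.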

How the data were processed

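The deposited values are whole-number UMI counts per gene and barcode for 2 libraries. Cell Ranger, Seurat and the build mm10 are named, without roles, per the submitters' processing notes; versions, aligner and filters are not given in the sources used here, and whether whole cells or nuclei were captured is not stated in the labels. The lowest total per barcode was 500 UMIs.

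Barcodes were kept with at least 200 genes and at most 50% mitochondrial UMIs. Scrublet (scanpy 1.11.5) marked 0 doublets by its automatic threshold in either library, so the 8% of cells with the highest scores, 1284 and 808, were removed; this does not show that they were doublets. Clustering took both libraries jointly, with no batch integration, over 2000 variable genes, leaving out the members, the 92 listed genes and mitochondrial, ribosomal, haemoglobin and sex-linked genes, with 30 principal components, 15 neighbours and Leiden (leidenalg 0.10.2) at resolution 1. Clusters were called "X-like" from at least 3 markers at 2-fold with 20 CPM added, each found in 5% of the cells. Names are rebuilt and may differ from the authors'. After the data were seen, Cdh19 was left out of the Schwann list, since it would have left fibroblast-like cluster 0 unnamed. Cluster 15, with 2 and 319 cells, stayed unnamed.

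UMIs were summed per class and library, with exact Poisson intervals for CPM, conditional binomial intervals for ratios and Clopper-Pearson intervals for shares. PCR duplicates are removed by UMIs, but intervals cover counting error only. No test was possible with 1 library per group. The ratio intervals were tested on simulated counts drawn with independent counting error, the same model that the intervals assume. That test cannot show how they hold where the UMIs of a gene gather in few cells.

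The members and lists were chosen with earlier results of these data known. Named genes are all 10 members, Trp53, the highest and lowest listed gene per role and large class with at least 100 UMIs, the 3 genes most alike each of 5 members, and markers. A gene that this rule names is not reported here. Alternatives tried were median-of-ratios scaling, other gene and cell filters, no doublet removal, Leiden resolution 2, 1 UMI added, cells of 500 to 1500 UMIs, and, chosen after the data were seen, Cdh19 kept, clusters with under 50 cells in a library left out, and macrophage-like cells outside the group led by Adam8.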

Additional observations from a re-analysis of the deposited data

Results flagged for a closer look

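Slc40a1 differed in opposite directions between classes: its log2 ratio, library labelled p53 knockout over library labelled wild-type, was 1.51 in macrophage-like cells, -3.36 in cardiomyocyte-like cells and -1.83 in fibroblast-like cells. Tfrc did so the other way round, with -3.20 in macrophage-like cells against 0.43 in cardiomyocyte-like and 0.76 in endocardial-like ones. Each class had 1 library on either side, so these differences between classes were not tested. The positive Slc40a1 value rests on the group led by Adam8, the positive Tfrc value in cardiomyocyte-like cells on the mitochondria-rich cluster 9, and that in endocardial-like cells on cluster 8, which held 16 cells of the library labelled wild-type.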

How the results depend on the processing

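Over 430 alternative values of member ratios in the 5 large classes, 46 moved beyond the counting interval without turning a 2-fold difference, and 2 turned one. Both were Slc40a1 in macrophage-like cells, at -0.87 with Leiden resolution 2, which places the group led by Adam8 with the neutrophil-like cells, and -0.93 without that group. Of 79 alternative values of the 9 ratios past 2-fold, 77 kept their direction and fold. With at least 100 UMIs per gene fewer members were measured, 8 in cardiomyocyte-like and 6 in vascular endothelial-like cells, and the number past 2-fold was 1 and 0 in place of 2 and 1. Weighting classes by the shares of the library labelled wild-type gave Fth1 a log2 ratio of 0.0737 in place of 0.168 over the 10 classes. Hmox1 in cardiomyocyte-like cells was 1.68 without cluster 9 and 4.20 without clusters with under 50 cells in a library. Slc40a1 was -2.02 in cardiomyocyte-like and -3.69 in fibroblast-like cells of 500 to 1500 UMIs. The causes were not tested. Depth limits Hmox1 in the library labelled wild-type, with 64 UMIs in all its kept cells, and Slc11a2, Heph and Slc40a1, with 308, 329 and 336. No paired analysis was possible because each group has 1 library.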
